A study of Mus musculus with 2 samples.

Results

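The clustered histone genes are the replication-dependent histone genes that lie in tandem groups in the mouse genome, and they were followed here through the immune cells of a mouse melanoma. They were taken by name: every gene whose symbol began with Hist1h, Hist2h, Hist3h or Hist4 and that had at least 1 unique molecular identifier (UMI, a tag that counts an RNA molecule once) over both libraries. The rule found 67 symbols, and 64 of the 32285 genes measured were kept. Hist1h2aa, Hist1h2ba and Hist1h4m had no UMI. By histone type the members comprised 6 H1, 17 H2a, 17 H2b, 12 H3 and 12 H4 genes. The tumours were grown under the skin of mice from B16F10-OVA, a B16F10 melanoma line that makes ovalbumin as a model antigen. The mice were injected 4 times, on day 10, day 12, day 14 and day 16, with PBS, the vehicle control, or with UDSP-Hep, and tumours were taken on day 19. UDSP-Hep is named in the labels without further description. In each group 3 tumours were pooled, CD45+ leukocytes were sorted, 10000 cells were loaded and 1 droplet single-cell library was made. The genotype and age of the mice are not given in the labels used here.

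With 1 library a group and no map from cells to tumours, no difference between the groups could be tested. Every interval below is a 95% interval that covers counting error only. UMIs are molecules counted once, yet cells of a library share their source and are not replicates. Levels are counts scaled to the total UMIs of the same cells, in CPM, and ratios are UDSP-Hep over PBS. A gene was called higher or lower where the ratio was at least 1.5 or at most its inverse, the interval left out 1 and at least 20 UMIs were summed; rose and fell refer to such calls alone.

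Nucleosomes are built from H2A, H2B, H3 and H4, and the linker histone H1 binds the DNA between them. The clustered genes supply most new histone protein while DNA is being copied, and their transcripts accumulate in S phase. These transcripts typically end without a poly(A) tail, just past a conserved stem-loop that is bound by the stem-loop binding protein SLBP. Some clustered genes, Hist1h1c and Hist1h2bc among them, can also give polyadenylated transcripts, and kits that prime on poly(A) capture the 2 kinds of end unequally. The reading of all levels below is bound to that limit, and the kind of end that was captured was not measured.

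All 64 members were found in the GENCODE M21 annotation of GRCm38, the assembly also called mm10. On chromosome 13, 51 members lay between positions 21715763 and 23764406. Another 10 lay on chromosome 3 between 96219865 and 96270132, 2 on chromosome 11 between 58948920 and 58956830, and Hist4h4 on chromosome 6 between 136801553 and 136804415. A 16-base stem-loop consensus was found past the stop codon of 45 members, or 70.3%. Anywhere in a transcript, it was found in 68 of 21901 protein-coding genes, or 0.310%. Clustered histone genes are counted among these, and 22 of the 68 were other genes. In members the stem-loop began 21 to 58 bases past the stop codon, with a median of 31. The windows below belong to the most abundant member of each type that held a match, and to 2 more H2a genes, Hist3h2a and Hist1h2ae, chosen after their values were seen. Each is 5′ to 3′ on the coding strand, from the annotated transcript, with the stem-loop in capitals. The 16 letters are the same in Hist1h1c, Hist1h2ap, Hist1h2be, Hist3h2a and Hist1h2ae, genes whose levels behaved unlike in the comparisons below, and differ in Hist1h3c and Hist1h4d.
Hist1h1c: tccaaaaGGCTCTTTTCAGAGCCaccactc
Hist1h2ap: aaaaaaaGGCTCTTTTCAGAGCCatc
Hist1h2be: aaccaaaGGCTCTTTTCAGAGCCacccaac
Hist1h3c: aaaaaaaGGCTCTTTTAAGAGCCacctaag
Hist1h4d: aaccaaaGGCCCTTTTCAGGGCCactacct
Hist3h2a: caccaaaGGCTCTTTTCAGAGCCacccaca
Hist1h2ae: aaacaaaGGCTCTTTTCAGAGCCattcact

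The annotated transcripts differed in what followed. Hist1h2ap, an H2A gene at chr13:21833026-21833507 on the minus strand, ended 3 bases past its stem-loop. Hist1h3c, an H3 gene at chr13:23744973-23745602 on the minus strand, ended 74 bases past it. Hist1h4d, an H4 gene at chr13:23581598-23582735 on the plus strand, ran on for 770 bases. Hist1h1c, a linker histone gene of 1 exon at chr13:23738808-23740367 on the plus strand, ran on for 840 bases. Hist3h2a, an H2A gene at chr11:58954685-58956830 on the plus strand, ran on for 1643 bases. The annotated ends of the last 2 genes and of Hist1h2ae, which ran on for 151 bases, held AATAAA, the usual polyadenylation signal, shown in capitals in the last bases of each transcript.
Hist1h1c end: AATAAAaagcgtttagttttcattca
Hist3h2a end: AATAAAataagagtacgtgtataacataag
Hist1h2ae end: AATAAAtgggtcaatttttttcagattc
The most abundant H2B gene, Hist1h2bc, at chr13:23684199-23692908 on the plus strand, has 2 exons and no match to the consensus in the transcript used.

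Copies of these genes are alike, so the count of 1 member is less certain than a sum over a type. Of all stretches of 50 bases in a member's transcript, a median of 48.2% was also present in another member, and in 29 members it was over 50%. The share was 93.1% for Hist1h2ap and 8.54% for Hist1h1c. The linker gene Hist1h1b had none shared. In addition, 23 members overlapped another annotated gene, 7 of them on the same strand. Single-member values below carry this uncertainty.

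The 2 libraries held 7379 barcodes from the PBS tumours and 7872 from the UDSP-Hep tumours, with 74685827 and 64241224 UMIs. After filters, 6717 and 7194 cells were kept with medians of 7874 and 5483 UMIs; 25 barcodes occurred in both libraries. Cell classes were rebuilt here from marker genes and are not the authors' annotation. In the 5 main classes no marker of the class's own list was at 0 in either library. The share of kept cells in no class was 12.2% and 19.3%. In cells gated as CD8 T cells, Cd8a and Cd8b1 summed to 1396 and 1390 CPM and the 12 markers of macrophages and monocytes to 1053 and 1557 CPM, and their part in the results was not tested. The 6 melanoma markers summed to at most 45.8 CPM in the main classes.

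Over all kept cells the members had 32007 UMIs in PBS and 19827 in UDSP-Hep, or 484 CPM (479 to 490) and 355 CPM (350 to 360). That is 0.0484% and 0.0355% of all UMIs. H1 genes led with 180 and 149 CPM, followed by H2a genes with 153 and 105. H4 genes had 61.9 and 44.0 CPM, H2b genes 52.8 and 36.004, and H3 genes 36.4 and 21.0. A few members held most of the signal: Hist1h1c alone gave 14359 UMIs, or 27.7% of all histone UMIs kept. Hist1h2ap gave 6066 UMIs, Hist3h2a 4251, the linker gene Hist1h1e 2987 and Hist1h2ae 2460. At the other end, Hist1h2ah had 5 UMIs, Hist2h2aa2 had 4, and Hist1h1t and Hist1h2bq had 1 each. The remaining 60 members had at least 20.

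**Figure D1:**
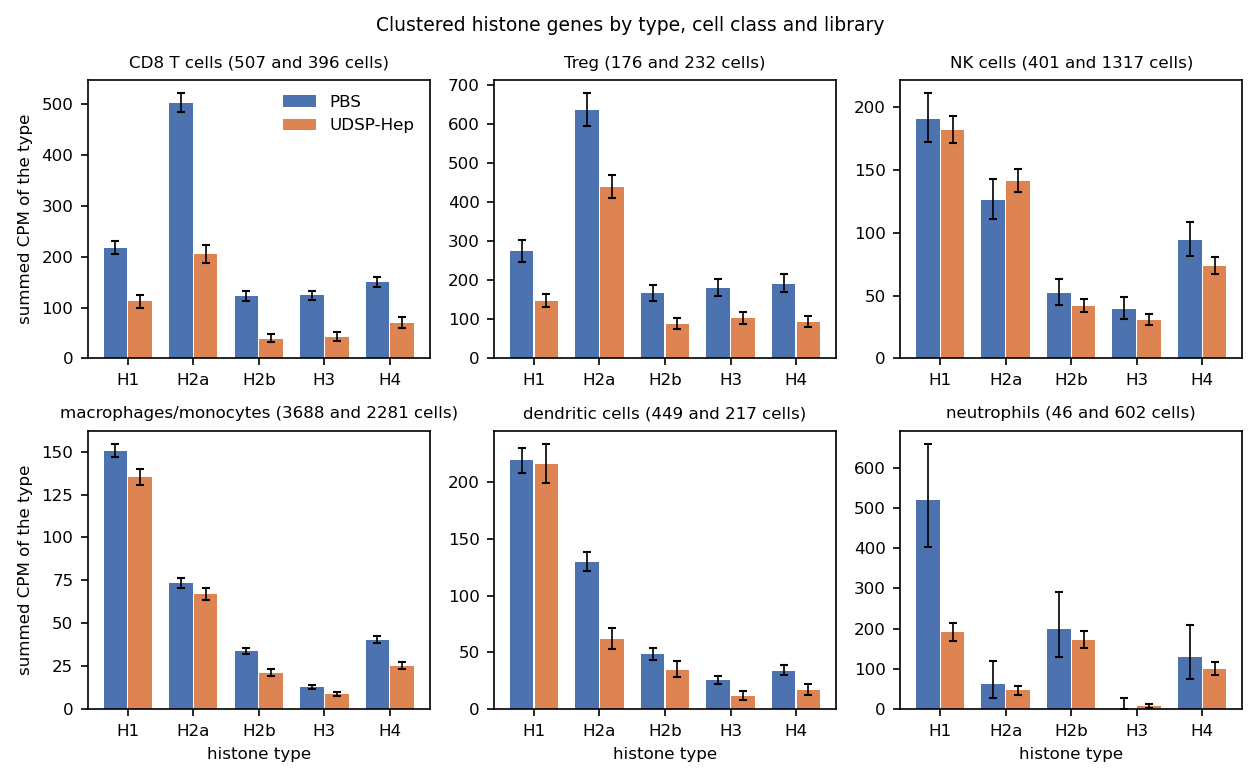
Summed level of each histone type (CPM) in the 5 main cell classes and in neutrophils, with bars for the PBS and the UDSP-Hep library and lines for 95% counting intervals. Among the 5 main classes the tallest bars are H2a in Treg and CD8 T cells, at 637 and 502 CPM in PBS, and every type is lower in the UDSP-Hep library in these 2 classes.

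In lymphocytes the histone sum was several-fold higher in cycling than in noncycling cells. A cell was counted as cycling where at least 10 of 53 cell cycle genes, none of them a histone gene, had a UMI; 493 PBS cells and 281 UDSP-Hep cells passed, or 7.34% and 3.91%. In CD8 T cells of the PBS library, the members summed to 240 CPM in 310 noncycling cells and to 1645 CPM in 197 cycling cells, a 6.84-fold difference. In the UDSP-Hep library they summed to 216 CPM in 354 noncycling and 1234 CPM in 42 cycling CD8 T cells, a 5.71-fold difference. In Treg, regulatory T cells gated on Foxp3, the difference was 13.2-fold in PBS and 14.7-fold in UDSP-Hep. Myeloid cells of the UDSP-Hep library did not share this step: macrophages and monocytes had 256 CPM in noncycling and 316 CPM in 30 cycling cells, 1.24-fold, and dendritic cells had 353 CPM in noncycling and 149 CPM in 6 cycling cells. In PBS these classes had 291 and 717 CPM, and 367 and 927 CPM. The steps were unlike between types: in PBS CD8 T cells H2a was 19.6-fold higher in cycling cells, H3 10.1-fold, H2b 4.63-fold, H4 3.65-fold and H1 3.37-fold. Cycling cells were also deeper, with a median of 15095 UMIs against 6240 in that class and library, and CPM corrects for depth by scaling alone. In cycling and noncycling macrophages and monocytes the medians were 24879 and 8595 in PBS and 27784.5 and 8959 in UDSP-Hep. Thinned to 2000 UMIs, with a limit of 4 genes, their cycling share was 1.24% in PBS and 0.66% in UDSP-Hep, from 1.74% and 1.32%. In dendritic cells it was 7.19% and 0.46%, from 8.91% and 2.76%. The gate counts genes with a UMI, so deep cells pass it more easily. The part of depth in the myeloid values was not tested.

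In PBS CD8 T cells 35 of the 44 members with enough UMIs were called higher in cycling cells, where 16.1% of all genes were. Hist4h4 was the 1 member called lower, at 6.04 CPM in noncycling and 1.96 CPM in cycling cells (ratio 0.33, interval 0.11 to 0.88), where 15.4% of all genes were called lower. Its call rests on 20 UMIs in all, the least that the rule accepts. The median log2 ratio of the members was 2.25 beside -0.03 for all genes. In Treg most members tested were also higher, 22 of 23 in PBS (13.9% of all genes) and 12 of 14 in UDSP-Hep (14.7%). In UDSP-Hep CD8 T cells it was 10 of 14 members (14.8%). In PBS macrophages and monocytes 24 of 40 were higher (19.5%), but in UDSP-Hep macrophages and monocytes, with 30 cycling cells, it was 3 of 23 (10.8%). In NK cells 5 of 12 members were higher in PBS (8.98%) and 11 of 23 in UDSP-Hep (12.5%). These 2 sets rest on 16 and 27 cycling NK cells. The minimum of 20 UMIs sums both kinds of cell, so members that passed it through cycling cells were bound to be higher there. Of the members tested in PBS, 6 in CD8 T cells and 6 in Treg had no UMI in noncycling cells. In noncycling cells of both libraries together, only 15 members in CD8 T cells and 4 in Treg reached 20 UMIs. The counts above are therefore no test of the members.

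The H2a gene Hist1h2ap had 7.89 CPM in noncycling and 414 CPM in cycling PBS CD8 T cells, a 52.5-fold difference (32.7 to 90.3). In UDSP-Hep CD8 T cells the same gene had 4.97 and 474 CPM. Hist1h2ae, an H2A gene too, went from 4.64 to 194 CPM in PBS, 41.8-fold. Both copies were low but not absent in noncycling PBS CD8 T cells, as was Hist1h2ap in UDSP-Hep. The linker gene Hist1h1b went from 2.79 to 123 CPM, 44.3-fold, and the H3 gene Hist1h3c from 0.93 to 68.1 CPM, 73.3-fold. Hist1h2ab had no UMI in noncycling cells and 49.05 CPM in cycling cells, at least 35.2-fold higher against a floor of 3 UMIs. A second set of members rose by less. Hist1h4d went from 13.9 to 93.05 CPM, Hist1h1e from 27.4 to 81.0 CPM and Hist1h2bc from 6.96 to 17.9 CPM. The H4 gene Hist1h4i, at 12.5 and 44.0 CPM, was 3.51-fold higher.

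A further few members did not pass the rule in either direction. Hist1h1c, the most abundant member of the family in these libraries, had 43.6 CPM in noncycling and 47.1 CPM in cycling PBS CD8 T cells, a ratio of 1.08. In UDSP-Hep it had 53.6 and 54.0 CPM. Its level was thus similar in both kinds of CD8 T cell in both libraries. Hist3h2a had 8.82 and 7.29 CPM, the H2B gene Hist2h2be 5.11 and 5.61 CPM and the H2A gene Hist1h2ac 5.57 and 6.45 CPM. In other classes Hist1h1c and Hist3h2a were called lower in cycling cells: Hist1h1c had 118 and 29.9 CPM in noncycling and cycling UDSP-Hep NK cells, and Hist3h2a 27.3 and 4.28 CPM, the 2 of 23 members called lower there (13.6% of all genes). In PBS dendritic cells Hist1h1c had 199 and 88.9 CPM, Hist3h2a 50.8 and 25.5 CPM and Hist1h2bc 26.6 and 14.97 CPM. There 14 of 20 members were called higher in cycling cells (14.6% of all genes) and these 3 lower (15%).

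**Figure D2:**
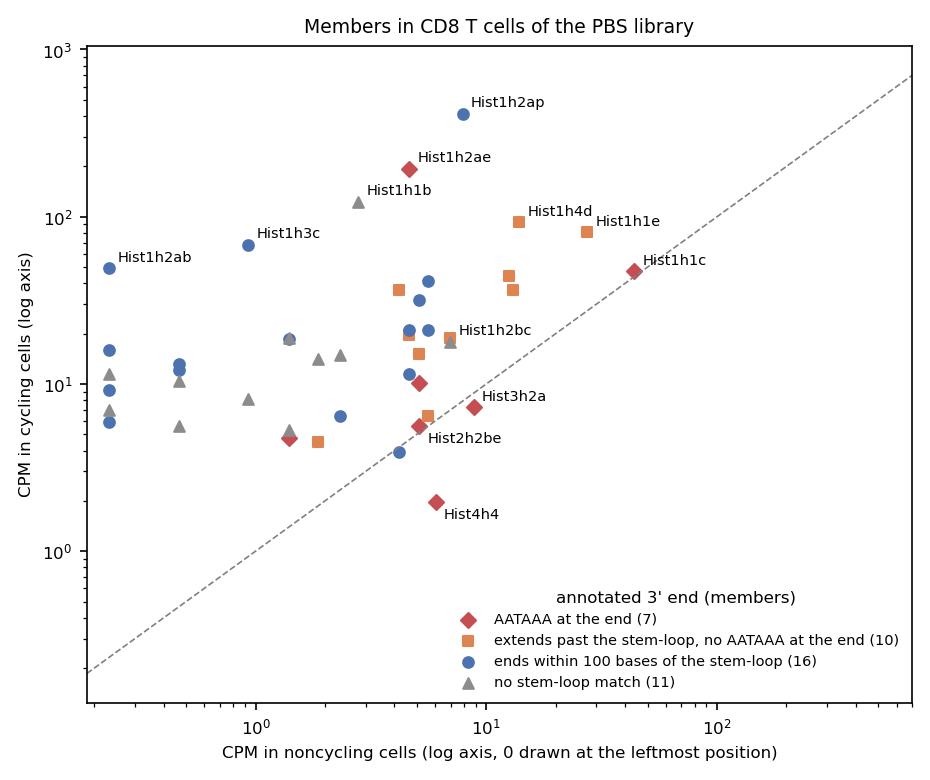
Level of each member in noncycling (x axis) and cycling (y axis) CD8 T cells of the PBS library, both in CPM on log axes, with the marker giving the annotated end of the transcript; members with 0 UMIs in noncycling cells are drawn at the leftmost position and the line marks equal levels. Hist1h2ap, Hist1h2ae, Hist1h1b and Hist1h3c lie far above the line, while Hist1h1c, Hist3h2a and Hist4h4 lie near or below it.

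Grouped by annotated end, members whose transcripts end in AATAAA had the lowest median in this comparison. Of 11 such members, 7 had enough UMIs in PBS CD8 T cells; 1, Hist1h2ae, was called higher in cycling cells and 1, Hist4h4, lower, beside 16.1% and 15.4% of all genes, and their median log2 ratio was 0.13. Of 22 members that end within 100 bases of the stem-loop, 15 of 16 with enough UMIs were higher, with a median of 2.81 and a range of -0.09 to 6.197. Of 13 members that run past the stem-loop with no AATAAA at their end, 8 of 10 were higher, with a median of 1.57. Another 18 members had no stem-loop match and no AATAAA at their end, and include models annotated for the coding length alone; 11 of 11 were higher, with a median of 3.04. The 19th member without a match, Hist2h2be, ends in AATAAA and is counted in that group. The ranges of the groups overlapped, since Hist1h2ae reached 5.39 within the first. The difference between the groups was not tested, and a member that passed the minimum through cycling cells had to differ.

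Cycling cells were split further by which cell cycle genes dominated: S-leaning cells had over 2 times as many UMIs of S phase genes as of G2 and M genes, G2/M-leaning cells the reverse, and the others were mixed. In the PBS library the histone sum was 304 CPM in 5504 noncycling cells, 736 CPM in 235 S-leaning cells, 2835 CPM in 96 mixed cells and 1595 CPM in 63 G2/M-leaning cells. In the UDSP-Hep library it was 284, 570, 2187 and 2059 CPM, in 5615, 126, 42 and 24 cells. The mixed cells had the highest sum in PBS. In UDSP-Hep the intervals of mixed (2086 to 2290) and G2/M-leaning cells (1906 to 2221) overlapped. Hist1h2ap went from 6.47 CPM in noncycling to 768 CPM in mixed PBS cells, and from 8.13 to 803 CPM in UDSP-Hep. Hist1h1c did not follow the sum, with 121 CPM in noncycling, 41.8 CPM in S-leaning, 90.6 CPM in mixed and 112 CPM in G2/M-leaning PBS cells. The classes differ in their share of cycling cells, so the 4 groups mix classes unequally. The split takes ranges of a per-cell score and is not a set of phases measured in the cells.

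**Figure D3:**
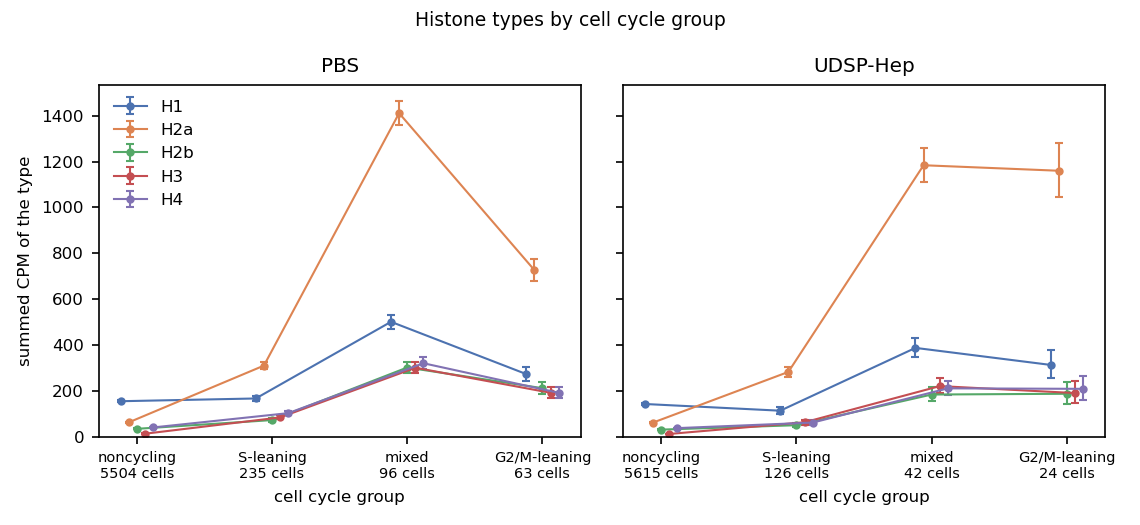
Summed level of each histone type (CPM) in noncycling, S-leaning, mixed and G2/M-leaning cells of all gated classes, for the PBS and the UDSP-Hep library. H2a is the highest type in mixed cells, at 1411 CPM in PBS and 1184 CPM in UDSP-Hep, while H1 leads in noncycling cells.

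Between the treatments, the histone sum fell in CD8 T cells, the cytotoxic T cells that recognise tumour antigens. Their histone sum was 1116 CPM in 507 PBS cells and 469 CPM in 396 UDSP-Hep cells, a ratio of 0.42 (0.40 to 0.45). All 5 types fell: H2b to a ratio of 0.32, H3 to 0.34, H2a to 0.41, H4 to 0.47 and H1 to 0.51. Of 47 members with enough UMIs, 33 fell, where 8.59% of all genes did, and the members' median log2 ratio was -1.26 beside 0.05 for all genes. By type the fall counted 9 of 11 H2a, 9 of 13 H2b, 7 of 8 H3, 5 of 10 H4 and 3 of 5 H1 members. The 1 member that rose, where 11.8% of all genes did, was Hist3h2a, from 7.86 to 13.8 CPM (ratio 1.76, 1.10 to 2.77). No member rose with cells thinned to 1000 UMIs, with a stricter gate or with classes from clusters, and 6 of 8 members fell with thinned cells and 13 of 17 with the stricter gate. Median depth moved with the group, at 8202 UMIs per cell in PBS and 5332 in UDSP-Hep.

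Hist1h2ap had 261 CPM in PBS and 122 CPM in UDSP-Hep CD8 T cells, a ratio of 0.47 (0.41 to 0.53). Hist1h2ae fell from 123 to 30.6 CPM (0.25, 0.20 to 0.31). Both copies belong to the members with far higher levels in cycling cells. Further from equality lay the H2B gene Hist1h2bj, from 28.0 to 3.36 CPM (0.12, 0.05 to 0.23), and Hist1h2ab, from 30.6 to 4.85 CPM (0.16). Hist1h2bk, another H2B gene, had 48 UMIs in PBS and 2 in UDSP-Hep, a ratio of 0.09 (0.01 to 0.34). The linker genes split. Hist1h1b fell from 77.9 to 19.0 CPM (0.24) and Hist1h1e from 60.8 to 24.3 CPM (0.40), while Hist1h1c stood at 45.8 and 53.7 CPM (1.17, 0.95 to 1.44). Hist1h3c fell from 42.8 to 12.3 CPM, its fellow H3 gene Hist1h3e from 24.5 to 11.2 CPM and Hist1h4d from 63.3 to 22.8 CPM. Hist1h4i fell from 32.2 to 15.7 CPM, and the H2B genes Hist1h2bc and Hist1h2be fell to ratios of 0.49 and 0.46.

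The share of cycling cells moved with this result: 197 of 507 CD8 T cells were cycling in PBS, or 38.9% (exact interval 34.6 to 43.3), and 42 of 396 in UDSP-Hep, or 10.6% (7.75 to 14.1). With each cell thinned to 2000 UMIs the shares were 38.5% and 13.4%. Cycling cells gave 91.9% of the histone UMIs of the class in PBS and 65.4% in UDSP-Hep. Within noncycling CD8 T cells the histone sum was 240 and 216 CPM (0.90, 0.79 to 1.02), and 1 of 15 members fell, where 4.54% of all genes did. That member was Hist1h1e, from 27.4 to 15.9 CPM (0.58, 0.37 to 0.91); the H2b sum also fell, from 37.6 to 19.9 CPM (0.53, 0.35 to 0.78). The sums of H1, H2a, H3 and H4 in noncycling cells had ratios of 0.95, 0.93, 1.10 and 0.98, each with an interval that held 1.

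Within cycling CD8 T cells the sum was 1645 CPM in PBS and 1234 CPM in UDSP-Hep, a ratio of 0.75 (0.70 to 0.81) that did not pass the rule. H4, H2b and H3 fell to 0.55, 0.56 and 0.59, whereas H2a stood at 0.91 (0.83 to 1.01) and H1 at 0.67. Of 42 members 13 fell, where 3.38% of all genes did. Hist1h2bj fell from 41.5 to 10.5 CPM, Hist1h4d from 93.05 to 39.0 CPM and Hist1h2ab from 49.05 to 19.5 CPM. Hist1h2ap stood at 414 and 474 CPM. These values rest on few cells: 5 of the 42 cycling UDSP-Hep cells gave 53.9% of the histone UMIs, against 14.8% from the top 5 of 197 PBS cells. S-leaning CD8 T cells went the other way, with 897 CPM in 118 PBS cells and 1102 CPM in 32 UDSP-Hep cells. Mixed cells had 3037 CPM in 53 PBS and 1650 CPM in 8 UDSP-Hep cells. G2/M-leaning cells had 2043 CPM in 26 PBS and 2278 CPM in 2 UDSP-Hep cells. The part of this phase makeup in the ratio of cycling cells was not tested. Without the 5 cells richest in histone UMIs in each library the ratio was 0.46 in cycling CD8 T cells and 0.32 in all CD8 T cells. By clusters, 75.1% of PBS and 71.5% of UDSP-Hep cells of the class lay in a cluster led by Cd8a and Cd8b1, where the sum fell from 1289 to 587 CPM. With a stricter gate, which kept 183 and 106 cells, the ratio of the class was 0.23. In the next cluster, led by Tcf7 and gamma-delta T cell receptor genes, it fell from 381 to 211 CPM.

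**Figure D4:**
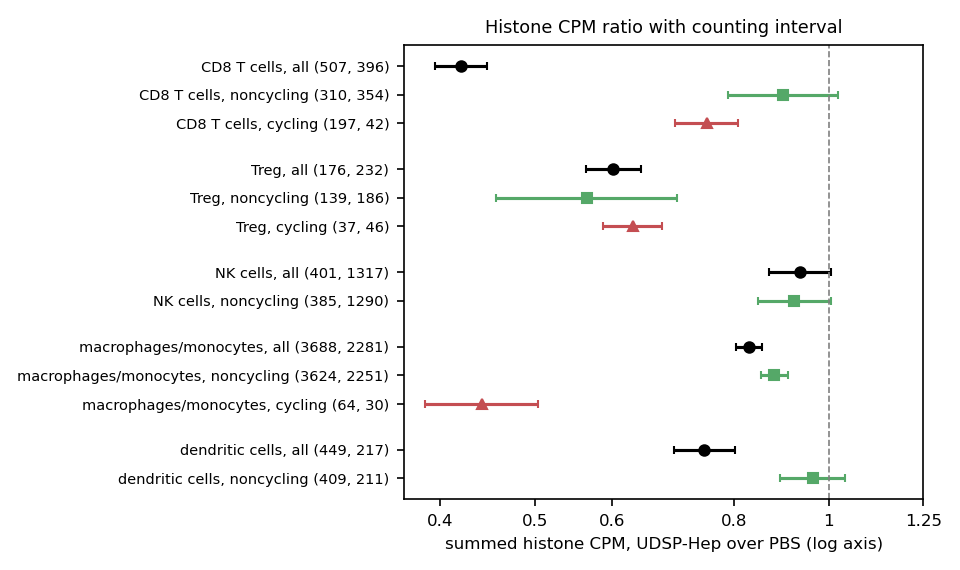
Ratio of the histone sum in UDSP-Hep over PBS (log axis, 1 marks equal levels) for all, noncycling and cycling cells of each main class, with 95% counting intervals; cycling cells are drawn where each library has at least 30. The CD8 T cell ratio is 0.42 for all and 0.90 for noncycling cells, while the Treg ratios are 0.60, 0.57 and 0.63.

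In Treg the sum fell from 1452 CPM in 176 PBS cells to 873 CPM in 232 UDSP-Hep cells, a ratio of 0.60 (0.56 to 0.64). Here the share of cycling cells was alike, 37 of 176 (21.0%) and 46 of 232 (19.8%), and the sum fell within both kinds of cell. It went from 242 to 137 CPM in noncycling Treg (0.57, 0.46 to 0.70) and from 3197 to 2012 CPM in cycling Treg (0.63, 0.59 to 0.67). Of 30 members 18 fell, where 3.27% of all genes did, and none rose, where 4.71% did. H1, H2b, H3 and H4 fell to ratios of 0.54, 0.54, 0.57 and 0.49, and H2a stood at 0.69. Among noncycling Treg the H1 sum fell from 109 to 49.2 CPM (0.45, 0.32 to 0.63) and the H4 sum from 48.7 to 23.7 CPM (0.49, 0.29 to 0.81), while H2b had 27.3 and 27.2 CPM. Of the other marker lists in Treg, ILC2 genes had 784 CPM in PBS and 1685 CPM in UDSP-Hep, with 1 of 5 at 0 in UDSP-Hep, and neutrophil genes 25.2 and 61.3 CPM, with 4 of 8 at 0 in PBS. Their part in the fall was not tested. The share of histone UMIs from the 5 richest cycling Treg was 45.8% in PBS and 45.6% in UDSP-Hep. By phase, S-leaning Treg had 1679 CPM in 14 PBS cells and 530 CPM in 19 UDSP-Hep cells. Mixed Treg had 5380 CPM in 11 PBS and 2915 CPM in 17 UDSP-Hep cells. G2/M-leaning Treg did not go down, with 2368 CPM in 12 PBS and 2572 CPM in 10 UDSP-Hep cells.

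All 4 H1 genes with enough UMIs fell in Treg. Hist1h1c went from 61.7 to 29.9 CPM (0.48, 0.34 to 0.68), Hist1h1e from 85.6 to 41.1 CPM (0.48) and Hist1h1d from 26.7 to 8.53 CPM (0.32, 0.17 to 0.59). Hist1h1b, the fourth, fell from 98.9 to 64.0 CPM. Hist1h1c fell in noncycling Treg as well, from 64.1 to 28.1 CPM (0.44, 0.27 to 0.69), the 1 of 4 members tested there that did (3.09% of all genes). Hist1h4d fell from 82.1 to 38.9 CPM, Hist1h2ab from 39.98 to 17.1 CPM and Hist1h2ae from 150 to 84.8 CPM. The most abundant copy, Hist1h2ap, had 342 and 282 CPM (0.82, 0.73 to 0.93), and Hist1h2bc had 11.2 and 14.9 CPM (1.33, 0.70 to 2.63). Hist1h3c, at 68.7 and 45.9 CPM, missed the rule at a ratio of 0.67. In cycling Treg 17 of 27 members fell, where 3.86% of all genes did. The Treg values depended on how cells were chosen: cells thinned to 1000 UMIs gave 0.76, log2 ratios of 0.023 for Hist1h1e and Hist1h4d and no member that fell, and a stricter gate with 82 PBS and 80 UDSP-Hep cells gave 0.17.

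In NK cells, innate lymphocytes that kill without antigen receptors, the sum was 503 CPM in 401 PBS cells and 470 CPM in 1317 UDSP-Hep cells (0.93, 0.87 to 1.01). Single members moved apart within it. Hist1h1e fell from 70.2 to 42.0 CPM (0.60, 0.49 to 0.74), Hist1h1d from 26.8 to 17.8 CPM (0.66) and Hist1h2be from 12.6 to 5.70 CPM (0.45, 0.26 to 0.79). Hist1h1c had 77.3 CPM in PBS and 111 CPM in UDSP-Hep, a ratio of 1.44 (1.20 to 1.72) just under the rule. In noncycling NK cells Hist1h1c had 79.1 and 118 CPM (1.49, 1.24 to 1.80) and Hist1h1e fell from 73.4 to 39.9 CPM (0.54, 0.44 to 0.68). The 2 most abundant linker genes thus had ratios on opposite sides of 1 in the same cells. Hist1h2ap, at 51.5 and 73.5 CPM (1.43), rests on few cells, as the top 5 of 16 and of 27 cycling NK cells gave 86.1% and 70.1% of the histone UMIs of that kind, and its log2 ratio was -0.25 with a stricter gate. The H2a sum of those cycling cells rose from 576 to 1005 CPM (1.74, 1.43 to 2.14). In all, 7 of 29 members fell, where 2.43% of all genes did, and none rose, where 4.19% did; Hist1h4i, from 25.8 to 16.3 CPM, was among the 7. In noncycling NK cells 3 of 23 fell (2.35%).

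Macrophages and monocytes had the lowest sum of the main classes. It was 311 CPM in 3688 PBS cells and 258 CPM in 2281 UDSP-Hep cells, a ratio of 0.83 (0.80 to 0.85) that did not pass the rule. In noncycling cells it was 291 and 256 CPM (0.88, 0.85 to 0.91). The H2b sum fell from 33.9 to 21.2 CPM (0.62) and the H4 sum from 40.2 to 25.3 CPM (0.63), while H1, at 151 and 135 CPM, and H2a, at 73.4 and 67.1 CPM, did not pass. Of 42 members 27 fell, where 4.88% of all genes did, and none rose, where 7.71% did. With cells thinned to 1000 UMIs 2 of 12 fell, with a stricter gate 12 of 36 and with classes from clusters 17 of 43. In noncycling cells alone 16 of 38 fell, where 4.35% did: 6 H4, 4 H2b, 3 H1, 2 H3 and 1 H2a.

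The abundant members behind the H1 and H2a sums were near equality or above it. Hist1h1c, with 4415 and 2735 UMIs, stood at 117 and 116 CPM (0.99, 0.94 to 1.04), and Hist3h2a at 38.9 and 47.5 CPM (1.22, 1.13 to 1.32). Below them, Hist1h2bc fell from 19.99 to 11.5 CPM (0.57, 0.50 to 0.66), Hist1h1e from 20.3 to 12.6 CPM (0.62, 0.54 to 0.71) and Hist1h4i from 15.8 to 9.66 CPM (0.61, 0.52 to 0.71). Each of these 3 was lower in noncycling cells too, Hist1h2bc from 18.5 to 10.9 CPM. Other members had lower ratios, with Hist1h1b falling from 5.35 to 2.12 CPM (0.40), Hist1h2ae from 7.26 to 3.30 CPM (0.46) and Hist1h2ac from 3.84 to 1.61 CPM (0.42). Hist1h2ap and Hist1h4d fell to ratios of 0.66, but Hist1h2ap had log2 ratios of 0.33 with a stricter gate and 0.23 with classes taken from clusters. In the cycling cells, 64 in PBS and 30 in UDSP-Hep, the sum fell from 717 to 316 CPM (0.44, 0.39 to 0.50) and 14 of 17 members fell (5.93% of all genes). Hist1h1b had 85 UMIs there in PBS and 2 in UDSP-Hep, while Hist1h1c had 91.1 and 136 CPM (1.499), which did not pass. A stricter gate left 31 and 13 cycling cells, whose ratio was 1.17. With the gate used above, 20 of 25 G2 and M genes and 9 of 28 S phase genes also fell in cycling cells (5.93% of all genes). The 5 richest of these cycling cells gave 56.5% of their histone UMIs in PBS and 49.8% in UDSP-Hep. The part of both in the ratio was not tested.

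The makeup of this class differed between the libraries. A cluster led by the heat shock genes Hspa1a and Hspa1b held 692 PBS cells, or 18.8% of the class, and 27 UDSP-Hep cells, or 1.18%. The largest cluster of the UDSP-Hep cells, led by Camp and Hp, held 19.99% of them and 15.2% of the PBS cells. The histone sum ranged from 225 to 645 CPM over the 10 clusters with at least 30 cells of the class in each library in PBS, and from 181 to 426 CPM in UDSP-Hep. In 3 of those clusters the sum fell, and the ratios ran from 0.50 to 1.11. The heat shock cluster, with 27 UDSP-Hep cells, is not among the 10 and went the other way. Its sum was 378 CPM (362 to 394) in PBS and 672 CPM (576 to 779) in UDSP-Hep. The sum fell in a cluster led by Gpnmb and Vcam1, from 393 to 257 CPM, and in one led by Cxcl9 and Gbp2, from 284 to 187 CPM. It also fell in cells of a cluster led by Cd209a, a dendritic cell marker, from 645 to 321 CPM. In the Camp cluster it was 279 and 293 CPM. In the cluster led by Ace and Adgre4 it was 382 and 426 CPM. The ratio of the class was thus not found in each of its clusters, and the part played by the makeup was not tested.

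**Figure D5:**
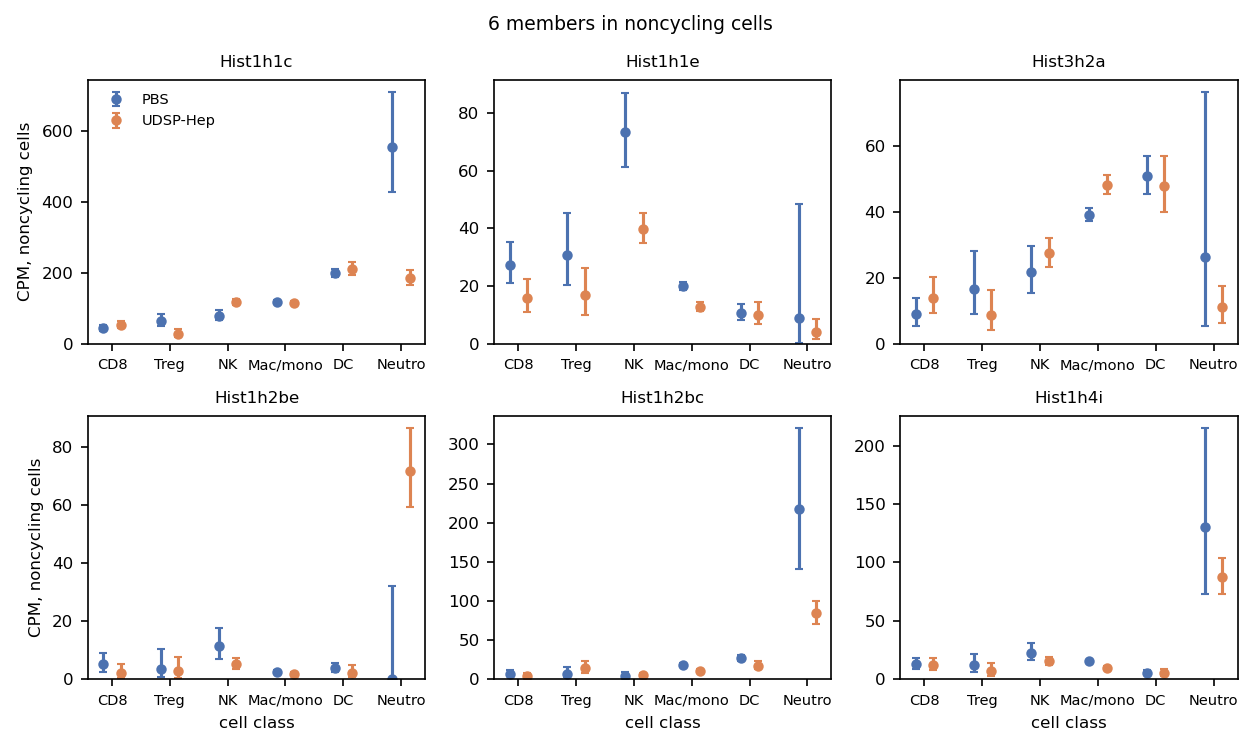
Level (CPM, with 95% counting intervals) of Hist1h1c, Hist1h1e, Hist3h2a, Hist1h2be, Hist1h2bc and Hist1h4i in noncycling cells of the 5 main classes and neutrophils, for both libraries. Hist1h1c ranges from 28.1 CPM in UDSP-Hep Treg to 557 CPM in the noncycling PBS neutrophils, and Hist1h1e is lower in UDSP-Hep in CD8 T cells, NK cells and macrophages and monocytes.

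Dendritic cells, the main antigen-presenting cells, had 457 CPM in 449 PBS cells and 340 CPM in 217 UDSP-Hep cells, a ratio of 0.75 (0.69 to 0.80) that did not pass the rule. Cycling cells numbered 40 of 449 and 6 of 217, and in noncycling cells the sum was 367 and 353 CPM (0.96, 0.89 to 1.04). Hist1h2ap fell from 41.2 to 5.22 CPM (0.13, 0.07 to 0.21), Hist1h2ae from 22.4 to 2.09 CPM (0.09, 0.03 to 0.21) and Hist1h1b from 14.1 to 2.43 CPM (0.17). Hist1h4d fell from 14.8 to 6.61 CPM and Hist1h1e from 17.2 to 9.39 CPM. Each of these members was called higher in cycling than in noncycling PBS dendritic cells. Hist1h1c and Hist3h2a, called lower in cycling cells there, stayed near equality between the libraries. Hist1h1c had 182 and 201 CPM (1.11) and Hist3h2a 46.7 and 47.3 CPM. Markers of macrophages and monocytes moved with the group, at 1122 and 1911 CPM, and those of plasmacytoid dendritic cells at 226 and 534 CPM, none of either list at 0. A cluster led by Fscn1 and Ccr7 held 36.3% of PBS and 19.8% of UDSP-Hep cells of the class, with histone sums of 323 and 245 CPM, and a cluster led by Cd209a held 56.6% and 67.7%, with sums of 535 and 354 CPM. The part of these shifts in the result was not tested. By type, H2a fell to 0.47, H3 to 0.44 and H4 to 0.49, and H1 had 219 and 216 CPM. In all, 10 of 23 members fell (5.75% of all genes), but none of the 2 tested with cells thinned to 1000 UMIs and 4 of 13 with a stricter gate. In noncycling cells 1 of 16 did (4.59%), Hist1h2bc, from 26.6 to 17.1 CPM (0.64). The class held 7082640 UMIs in PBS and 2876054 in UDSP-Hep, so members could pass the minimum through PBS. Without Hist1h1c the sum of all dendritic cells had a ratio of 0.51.

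Neutrophils numbered 46 in PBS and 602 in UDSP-Hep, too few in PBS for the rule that names genes, and are given as values chosen after they were seen. Their median depth was 2270 and 2421 UMIs. Hist1h1c gave 66 UMIs in 15 PBS cells, or 505 CPM, and 289 UMIs in UDSP-Hep, or 186 CPM (0.37, 0.28 to 0.49). Few PBS cells carried these values: 5 of the 46 gave 64.7% of the histone UMIs, and 1 gave 17 of the 66 UMIs of Hist1h1c. Hist1h2bc fell from 191 to 84.1 CPM (0.44, 0.29 to 0.70), and Hist1h4i had 115 and 87.4 CPM. Hist1h2be stood apart: it had no UMI in the 46 PBS cells and 112 UMIs in UDSP-Hep, or 71.9 CPM, spread over 86 cells with at most 4 in a cell. Against the floor of 3 UMIs this is a log2 ratio of at least 1.65. Of 6 members tested 1 rose (7.67% of all genes) and 2 fell (5.54%). The H3 members summed to 0 UMIs in PBS and 10 in UDSP-Hep. Markers of macrophages and monocytes were at 3611 CPM in PBS and 1682 CPM in UDSP-Hep neutrophils, and their part in these values was not tested. The annotated Hist1h2be gene, at chr13:23583670-23621124 on the minus strand, overlaps Hist1h1e, at chr13:23620629-23622558, on the same strand.

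The genes that work with the members were followed in lists. In CD8 T cells 27 of 28 S phase genes and 25 of 25 G2 and M genes fell in UDSP-Hep (8.59% of all genes), the lists that also define a cycling cell here. Dut, which clears dUTP, fell from 416 to 143 CPM and the thymidine kinase gene Tk1 from 67.5 to 20.5 CPM. Mcm4, a part of the replicative helicase, missed the rule at 0.71. Among G2 and M genes the kinetochore gene Cenpf fell from 71.3 to 11.9 CPM and Ube2c, of the anaphase-promoting pathway, from 161 to 30.2 CPM. In noncycling CD8 T cells 2 of 21 S phase and 2 of 6 G2 and M genes fell (4.54% of all genes) and 1 S phase gene rose (6.65%). In Treg 2 of 28 S phase genes fell (3.27% of all genes), among them Clspn, from 60.3 to 36.8 CPM, and 1 rose (4.71%), the licensing gene Cdc6, from 14.7 to 27.7 CPM. In the same cells 13 of 25 G2 and M genes fell, such as Cdc20, from 58.9 to 22.9 CPM. In dendritic cells 23 of 28 S phase and 22 of 24 G2 and M genes fell (5.75% of all genes), and in macrophages and monocytes 5 of 28 and 21 of 25 (4.88%).

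Genes listed as replication-independent histone variants, whose symbols fall outside the naming rule of the members, were read by the same call rule. The kind of end of their transcripts was not measured. In CD8 T cells 3 of 10 fell (8.59% of all genes), among them Cenpa, the centromeric H3 variant, from 246 to 116 CPM and H2afx, the damage-marked H2A variant, from 83.5 to 39.6 CPM. H2afj and the macroH2A gene H2afy stood at ratios of 1.12 and 1.05. In noncycling CD8 T cells none of 9 passed (4.54% of all genes fell and 6.65% rose). In Treg 2 of 9 fell (3.27% of all genes), Cenpa from 291 to 174 CPM among them. Between cycling and noncycling PBS CD8 T cells, 5 of 10 variants were higher, with a median log2 ratio of 1.07, where 16.1% of all genes were. Cenpa, among the 5, is also a G2 and M gene of the cycling gate, so its call was set by the gate. H2afx had 19.0 and 122 CPM in noncycling and cycling cells, and the H2A.Z gene H2afz 443 and 1420 CPM. The H3.3 genes H3f3a and H3f3b had ratios of 1.06 and 1.07.

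Genes for histone transcription and 3′ processing passed the rule in few cases between treatments. In CD8 T cells 2 of 16 fell, near the 8.59% of all genes, including the cyclin gene Ccne1, from 26.04 to 14.2 CPM, and Sympk, of the cleavage complex, had a ratio of 1.18. In Treg none of 16 passed (3.27% of all genes fell and 4.71% rose), and Slbp, which encodes the stem-loop binding protein, had 222 and 253 CPM (1.14, 0.99 to 1.32). Of 19 histone chaperones 5 fell in CD8 T cells (8.59% of all genes), including Chaf1a, of the replication-coupled assembly factor, from 48.2 to 23.5 CPM and Nap1l1 from 623 to 368 CPM. In Treg none of 18 passed, beside the same shares of all genes. Between cycling and noncycling PBS CD8 T cells 13 of 16 processing genes and 13 of 19 chaperones were higher (16.1% of all genes), with median log2 ratios of 0.91 and 1.10. Mcm2, among those chaperones, is also an S phase gene of the cycling gate, so its call was set by the gate. Slbp had 131 and 328 CPM, the cyclin gene Ccne2 1.39 and 32.2 CPM, and the chaperone gene Asf1b 2.79 and 84.1 CPM. Daxx, a chaperone gene for H3.3, was lower in cycling cells, at 46.9 and 26.6 CPM.

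Promoters of 58 members were matched in a RefSeq table on GRCm38.p6, which gives 250 bases before and 50 after each gene's start. Motifs were searched on both strands as exact letters. CCAAT was present in 50 of the 58, or 86.2%, against 37.4% of 32817 promoters of the same length, in every matched H1, H2a, H2b and H3 member and in 3 of 11 H4 members. TATAA was present in 45, or 77.6%, against 24.9%. The octamer ATTTGCAT was found in 6 of 16 H2a and 5 of 15 H2b members, or 19.0% of all, against 1.74%. AAACACA, an element known from H1 promoters, was present in 5 of 6 H1 members and 7 of 58 in all, or 12.1%, against 7.19%. No motif searched lies within another; ATTGG is CCAAT on the other strand, and TTATATAA holds TATAA on both. The promoters of Hist1h1c, level in cycling and noncycling CD8 T cells, and Hist1h1b, 44.3-fold higher in cycling cells, are shown as a pair of linker genes of unlike behaviour, at chr13:23738557-23738856 on the plus strand and chr13:21780576-21780875 on the minus strand, with the letters of these motifs in capitals.
Hist1h1c promoter: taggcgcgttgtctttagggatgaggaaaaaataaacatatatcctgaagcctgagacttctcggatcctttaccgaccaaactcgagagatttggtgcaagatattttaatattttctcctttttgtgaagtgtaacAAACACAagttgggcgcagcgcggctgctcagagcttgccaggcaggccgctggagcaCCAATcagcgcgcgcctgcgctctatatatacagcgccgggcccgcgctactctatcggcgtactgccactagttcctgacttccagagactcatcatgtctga
Hist1h1b promoter: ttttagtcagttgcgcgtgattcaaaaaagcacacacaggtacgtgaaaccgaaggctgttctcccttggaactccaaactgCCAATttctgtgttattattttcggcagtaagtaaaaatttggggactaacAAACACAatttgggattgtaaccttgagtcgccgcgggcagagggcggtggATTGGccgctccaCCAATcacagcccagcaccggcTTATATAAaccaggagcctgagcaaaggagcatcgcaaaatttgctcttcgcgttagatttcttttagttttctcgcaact
Both windows hold AAACACA and CCAAT, and the Hist1h1b window also holds TATAA. The Hist1h1c window holds tatatata, which the exact search for TATAA did not count.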

How the data were processed

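Droplet single-cell RNA was measured in 1 library per group, each from 3 pooled tumours. The deposited matrices hold whole UMI counts per gene and barcode; their file headers give Cell Ranger 7.0.0 as the software. The submitters' processing notes name mm10 and Seurat. The labels do not say whether the kit primes at the 3′ or 5′ end or whether intron reads were counted. Every barcode held at least 500 UMIs.

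From these counts, cells with at least 200 genes, 500 UMIs and under 10% mitochondrial UMIs were kept, which removed 245 PBS and 197 UDSP-Hep barcodes. Scrublet, run in scanpy, marked 0.0138% and 0.0129%, which is too few to be of use, so the 417 and 481 barcodes with the highest doublet scores were left out, at 0.8% per 1000 barcodes. Members and lists were chosen with earlier results of these data known. Marker genes were fixed first; gate thresholds, the cycling limit of 10 genes, the split by phase, the minimum of 30 cells and the clusters' use were set after the data were seen. Each class needed several of its markers and few of other lineages, with no histone gene in any gate. In all, 157 PBS and 189 UDSP-Hep cells had between 8 and 11 cell cycle genes, near the limit. Clusters used 2000 variable genes without histone genes, 30 components and a resolution of 1.5.

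UMIs were summed per class and library. Each sum has an exact Poisson interval and each ratio an exact conditional binomial interval. No p-value was computed, and the same replicate number in both groups pairs nothing. In each class, named genes are the 2 members of each type with the most UMIs, plus up to 6 above and 6 below equality by the bound nearest 1, with at least 50 UMIs; list examples are the outermost 2 each way, and others were chosen after their values were seen. The call was tried on simulated CD8 T cell counts for 10501 genes. Each count was 1 Poisson sum per gene and library, with no spread between cells. On these the call recovered 88.0% of genes at a true ratio of 0.5 and 85.7% at 2. The draws follow the model of the interval, so recovery where few cells carry the UMIs was not tested. Tools were Python 3.11.15, numpy 2.4.6, scipy 1.17.1, pandas 2.3.3, scanpy 1.11.5 and matplotlib 3.10.9.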

Additional observations from a re-analysis of the deposited data

Results flagged for a closer look

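The H2B gene Hist1h2be was called in opposite directions in different cell classes. In neutrophils its log2 ratio of UDSP-Hep over PBS was at least 1.65, set against a floor of 3 UMIs because the 46 PBS neutrophils held none. It was -1.12 in CD8 T cells, -1.30 in Treg, -1.15 in NK cells and -0.75 in macrophages and monocytes. The difference between the classes was not tested. No group has 4 or more samples, so no sample could be compared with others of its group.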

How the results depend on the processing

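Each group had 1 library, so no library could be left out. No paired analysis was possible because each group has 1 library and no result comes from a test. Leaving out the 5 richest cells and leaving Hist1h1c out of the sum were chosen after seeing the data; values below are log2 ratios of UDSP-Hep over PBS unless given as counts. With cells thinned to 1000 UMIs the sums were -1.46 in CD8 T cells, -0.40 in Treg, -0.30 in NK cells, -0.22 in macrophages and monocytes and -0.22 in dendritic cells; cycling cells gave -0.69 in CD8 T cells, -0.27 in Treg and -0.78 in macrophages and monocytes, and noncycling cells -0.35 in CD8 T cells and -0.33 in NK cells. Members that fell then numbered 6 in CD8 T cells, 0 in Treg, 2 in NK cells, 2 in macrophages and monocytes and 0 in dendritic cells, and 0 rose in CD8 T cells; thinning leaves fewer members with enough UMIs. Thinning also turned Hist1h1e (0.023), Hist1h4d (0.023) and Hist1h3c (0.61) in Treg, Hist1h2ap in NK cells (-0.40) and Hist1h3e in dendritic cells (1.05). With the stricter class gate, which keeps fewer cells, the sums were -2.09 in CD8 T cells, -2.58 in Treg, -0.24 in NK cells, -0.21 in macrophages and monocytes and -0.25 in dendritic cells, with -3.19 in cycling Treg, -0.37 in noncycling Treg and 0.22 in cycling macrophages and monocytes. Members that fell numbered 13 in CD8 T cells, 8 in Treg, 2 in NK cells, 12 in macrophages and monocytes and 4 in dendritic cells, and 0 rose in CD8 T cells. Hist1h2ap turned in NK cells (-0.25), and in macrophages and monocytes Hist1h2ap (0.33), Hist1h3c (0.50) and the H2a sum (0.14) turned. With classes from clusters, dendritic cells had -0.59 (noncycling -0.21), macrophages and monocytes -0.17 (cycling -0.39) and cycling CD8 T cells -0.61; 17 members fell in macrophages and monocytes, 1 rose in NK cells and 0 rose in CD8 T cells, while the H2a sum (0.029) and Hist1h2ap (0.23) in macrophages and monocytes and Hist1h1c in dendritic cells (-0.16) turned. With doublets kept, dendritic cells had -0.57 and cycling macrophages and monocytes -0.82. With every cell weighed the same these were -0.16 and -0.74. Scaling to the median gene gave -0.38 in macrophages and monocytes and -0.31 in their noncycling cells. A minimum of 50 UMIs left 4 members that fell in NK cells and 5 in dendritic cells. Without Hist1h1c the sums were -1.37 in CD8 T cells, -0.25 in NK cells (noncycling -0.35), -0.98 in dendritic cells (noncycling -0.24) and -0.45 in macrophages and monocytes (noncycling -0.30, cycling -1.80). Without the 5 richest cells they were -1.66 in CD8 T cells, -1.12 in cycling CD8 T cells and -0.88 in cycling macrophages and monocytes. Of the other values of sums, types, named members and counts, 749 moved by less than their counting interval or 1.5 times and 79 single members or types moved by more without a change of direction. The cause was not tested. In thinned or cycling subsets a member rests on few UMIs, which limits what a missing call can show.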

Other observations

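Among cells that passed no class gate, the histone sum was 694 CPM in PBS and 374 CPM in UDSP-Hep.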
